A study of Mus musculus with 165 samples.

Results

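Brains of 24-month-old mice were compared with brains of 15-month-old mice, the step from late middle age to old age in this series. The comparison took the 17 brain libraries labelled 24 months and the 16 labelled 15 months, 33 of the 165 libraries of the series, and no measured value entered the choice. All animals were male mice of the inbred strain C57BL/6J/Ukj that were held under controlled conditions purely to grow old, so that both groups shared strain, sex and housing, and no genotype or treatment separated them. The series also held brains at 3, 9 and 28 months and livers at the same 5 ages. Polyadenylated RNA of the brain, in which neurons, glia, vessels and any blood are mixed, was extracted with QIAzol and chloroform and made into stranded TruSeq libraries. The labels do not say which part of the brain was taken, and they assign each library to 1 of 3 library preparations, called preps here. Replicates were separate libraries of different animals by their labels, each animal being measured at a single age.

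As background, the brain has its own resident macrophages, the microglia, which with age leave a surveying state and increase lysosomal enzymes, pattern receptors and complement components. Astrocytes respond to injury and inflammation by making more intermediate filament proteins such as Gfap, and they make the complement component C4. Interferons act on most brain cells through STAT and IRF factors and raise the genes of class I antigen presentation, in which peptides cut by the immunoproteasome are carried by the Tap transporter onto class I heavy chains paired with beta-2 microglobulin. Blood vessels of the brain sense cytokines of the circulation and can answer with acute phase genes of their own, such as Lcn2.

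Of 18711 genes tested with edgeR's quasi-likelihood test, 137 (0.732%) differed at a Benjamini-Hochberg adjusted p under 0.05, which is what "called" means below. Of these, 127 genes (0.679%) were higher and 10 (0.0534%) were lower at 24 months. The count and the balance of directions depended on the tool and on a library outside the comparison. DESeq2 called 247 of 18204 genes with an adjusted p (217 higher, 30 lower). Voom with quality weights called 848 of 18711 (514 higher, 334 lower). When 28 months replicate 15 was left out of the shared fit, edgeR called 294 (259 higher, 35 lower). An unadjusted p under 0.05 with edgeR was reached by 1631 of the 18711 genes. The list counts below are to be read beside these counts over all genes. Fold changes are log2 values of 24 over 15 months with their standard error (SE), and levels are in CPM, counts scaled to a common library total. The median log2 fold change was 0.59 over the higher genes and 0.0054 over all tested genes. At least 2-fold differences were seen for 25 of the higher genes and 0 of the lower ones, by the fitted value. The direction was the same in each of the 3 preps fitted alone for 97.8% of the called genes (38.9% of all tested genes). In 53 of the 127 higher genes at least 9 of the 17 old brains lay above every 15-month brain (0.802% of all tested genes). The called genes were chosen by their change in these same libraries, so both shares describe them and are not read against those of all genes. No gene separated the ages completely, with every old brain above (0%) or below (0%) every younger one.

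**Figure D1:**
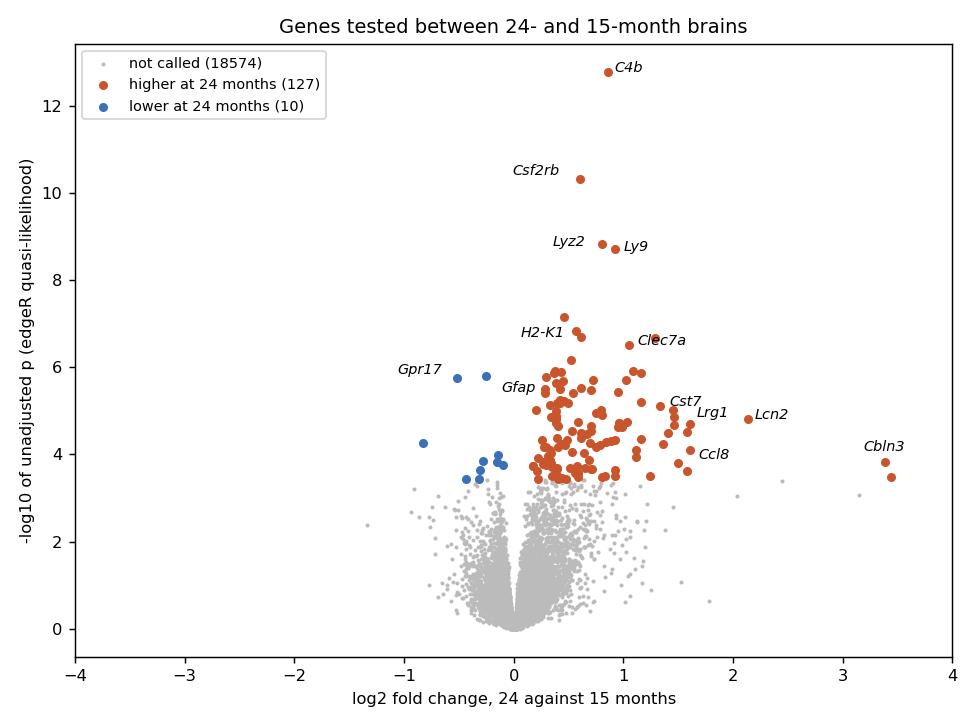
Log2 fold change of 24 against 15 months (horizontal axis) against -log10 of the unadjusted edgeR p (vertical axis) for 18711 brain genes. Red points are the 127 genes called higher, blue points the 10 called lower and grey points the rest. The called genes lie almost all to the right of 0, and C4b stands highest.

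Depth and dissection bear on these values. Total counts per library ran from 28435000 to 46063000 at 15 months and from 19654000 to 73390000 at 24 months. The shallowest library, 24 months replicate 13, was also the one most biased to short transcripts. The correlation of its deviations with transcript length was -0.63, against a median of 0.072 over the 24-month brains. Its summed ribosomal protein genes reached 16893 CPM against a median of 5637. Next in this correlation were 24 months replicate 4 (-0.54) and 15 months replicates 3 (-0.51) and 13 (-0.43). Their ribosomal sums were 7187, 7251 and 6285 CPM. Without 24 months replicate 13, 107 genes were called (102 higher, 5 lower), 98 of them among the 137. Marker sums of neighbouring tissue stood apart in single libraries. Choroid plexus genes summed to 6649 CPM in 15 months replicate 14 and 5968 CPM in 24 months replicate 8, against medians of 260 and 229. Cerebellar genes summed to 771 CPM in 24 months replicate 6, against a median of 125. The whole brain identity list stayed between 8123 and 11376 CPM in all 33 libraries, and the liver transcript Alb did not pass the filter on low counts.

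C4b, which encodes complement component C4, a protein that tags surfaces for removal by phagocytes, gave the smallest p of the brain. Its level ran from 56.0 through a median of 72.1 to 102 CPM at 15 months, and from 93.6 through 127 to 185 CPM at 24 months. The highest younger brain, replicate 1, overlapped with 2 of the old brains, replicates 2 and 16, and the other 15 old brains were above all younger ones. The log2 fold change was 0.86 ± 0.10 (SE; adjusted p 3.1e-09), an increase of 81.4%, and it was 0.91, 0.76 and 0.94 within preps 1, 2 and 3. C4b shares most of its sequence with C4a, so the split of reads between these genes is uncertain. Of 15 complement genes tested, 2 were called, C4b and the integrin subunit Itgb2 of complement receptor 3 (0.33 ± 0.08, adjusted p 0.0172), and the list median was 0.31. DESeq2 called 4 of this list higher and voom 7. C1qc, a chain of the C1q complex that starts the classical pathway, had 0.30 ± 0.08 and missed the threshold (adjusted p 0.0535).

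Lyz2, the lysozyme of macrophages, was at 6.62 to 12.1 CPM (median 9.15) at 15 months and at 10.2 to 22.4 CPM (median 14.9) at 24 months. Of the 17 old brains 14 exceeded every younger one, with a log2 fold change of 0.81 ± 0.12 (adjusted p 8.9e-06). Csf2rb, the shared receptor chain for the cytokines GM-CSF, IL-3 and IL-5, went from 1.5 to 2.28 CPM (median 1.79) up to 1.94 to 3.86 CPM (median 2.67). Again 14 old brains lay above all younger ones, and the log2 fold change was 0.61 ± 0.08 (adjusted p 4.5e-07). Ly9, a receptor of the SLAM family on immune cells, had medians of 0.565 and 1.01 CPM, ranges of 0.354 to 0.848 and 0.726 to 1.64, and a log2 fold change of 0.92 ± 0.14 (adjusted p 8.9e-06). Old brains above all younger ones numbered 14 here as well.

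Clec7a, the beta-glucan receptor dectin-1 and a marker of activated microglia, rose from a median of 0.649 CPM (0.383 to 1.09) to 1.26 CPM (0.636 to 1.91). The groups overlapped more, since 10 of 17 old brains exceeded all younger ones. Its log2 fold change was 1.05 ± 0.19 (adjusted p 0.00065). Slc11a1, a metal transporter of the phagosome, rose by 0.38 ± 0.07 (adjusted p 0.0017), and the long noncoding transcript AU020206 by 0.45 ± 0.08 (adjusted p 0.00026). In Slc11a1 a single younger brain, replicate 3 at 4.52 CPM, exceeded most old brains, although all 17 old brains were above the younger median of 3.07 CPM.

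The list of genes known from disease-associated microglia, a state described in models of neurodegeneration, had 26 tested members. It held 6 called higher and 0 called lower by edgeR, against 9 higher by DESeq2 and 12 by voom, with 25 positive values and a median log2 fold change of 0.28. Besides Lyz2 and Clec7a the 6 were the protease inhibitor Cst7 (1.34 ± 0.28, adjusted p 0.0039), the endosomal glycoprotein Cd68 (0.28 ± 0.06, adjusted p 0.0025), the surface protein Cd52 (0.65 ± 0.17, adjusted p 0.034) and the oxysterol enzyme Ch25h. Without 24 months replicate 13 the count was 4: Cd52 was at 0.47 (adjusted p 0.15), and Ch25h kept its fold change of 1.24 but missed the threshold (adjusted p 0.059). Cd52 was at 7.36 CPM in that library, against 1.70 to 2.63 CPM in the other old brains. Homeostatic microglia genes, which mark the surveying state, gave 0 called of 15 by edgeR and a median of 0.06. At an unadjusted p under 0.05, 5 of them were higher and 1 lower, while DESeq2 called 0 and voom 4 (3 higher, 1 lower). Among them Cx3cr1, the fractalkine receptor, had 0.14 ± 0.05 (adjusted p 0.27) and the Fc receptor-like gene Fcrls -0.28 ± 0.11 (adjusted p 0.27). In a bulk sample more cells of a type and more RNA per cell cannot be told apart, and this holds for all groups named here. Lysosomal genes had 3 called higher of 23 (median 0.13), namely Lyz2, Cd68 and the protease Ctss (0.34 ± 0.07, adjusted p 0.0039), while DESeq2 called 4 and voom 9.

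**Figure D2:**
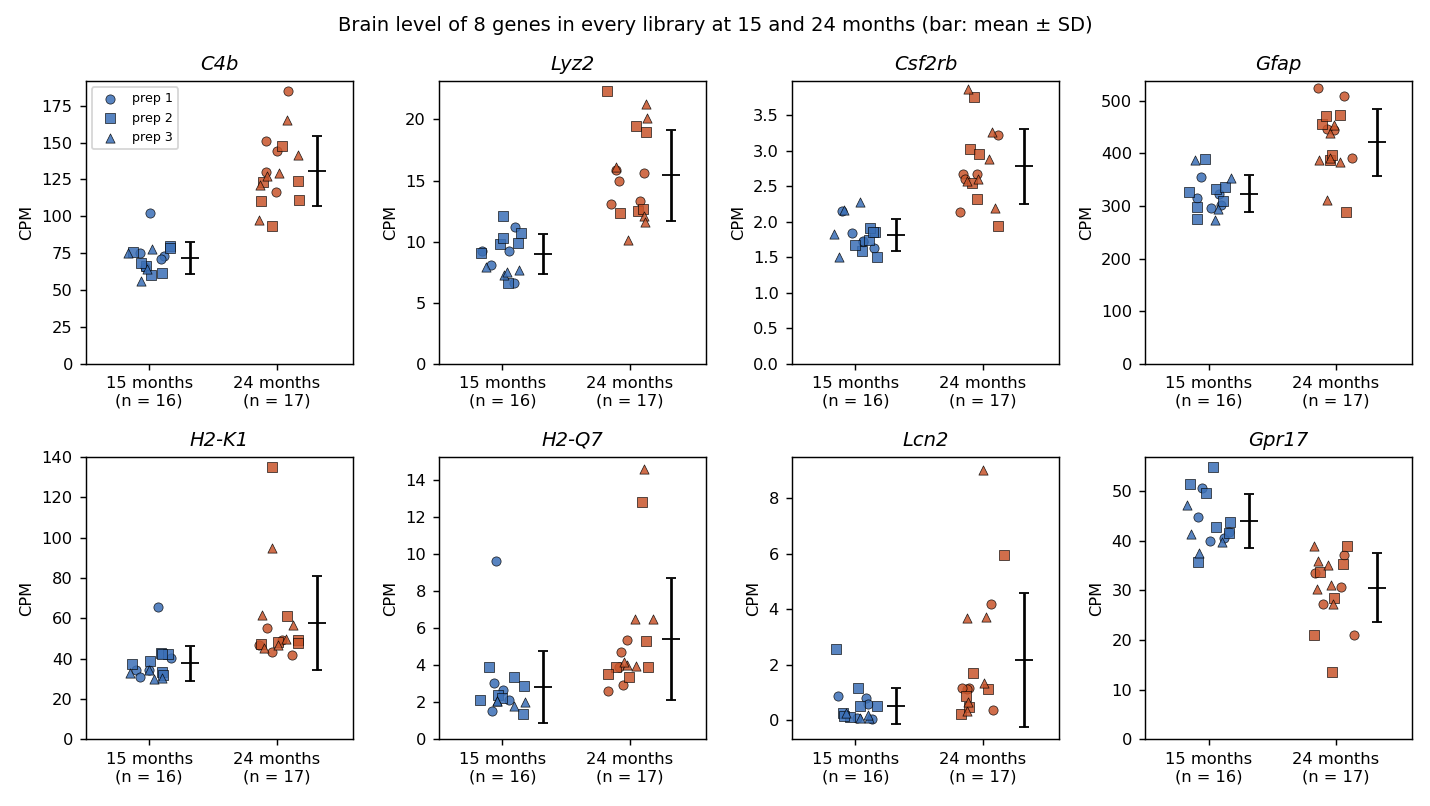
CPM of 8 genes in each brain library at 15 months (blue, n = 16) and 24 months (red, n = 17). Symbols give the prep and bars the mean ± SD. C4b, Lyz2 and Csf2rb rose in most old brains, H2-K1, H2-Q7 and Lcn2 had a few libraries far above the rest, and Gpr17 fell.

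Of the 18 genes of class I antigen presentation, all tested, 12 were called higher and 0 lower by edgeR, with a median log2 fold change of 0.49. Over all tested genes 0.679% were called higher. DESeq2 called 12 higher and voom 14. Without 24 months replicate 13 the count was 11 and the median 0.42. The classical heavy chain H2-K1 was at 29.9 to 65.7 CPM (median 34.6) at 15 months and at 41.9 to 135 CPM (median 49.2) at 24 months. Every old brain stood above the younger median, but 15 months replicate 7, at 65.7 CPM, was above all old brains except replicates 10 (94.8 CPM) and 13 (135 CPM). The log2 fold change was 0.62 ± 0.11 (adjusted p 0.00049) and was 0.49 without replicate 13. H2-D1, the other classical heavy chain of this strain, had medians of 50.6 and 69.4 CPM and a log2 fold change of 0.52 ± 0.10 (adjusted p 0.0013). The same 15-month library was its highest, at 75.9 CPM, and replicates 10 and 13 were again the highest old brains, at 98.4 and 125 CPM.

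Among the nonclassical heavy chains H2-Q7 had a median of 2.17 CPM (1.37 to 9.64) at 15 months and of 4.01 CPM (2.61 to 14.6) at 24 months, with a log2 fold change of 0.95 ± 0.21 (adjusted p 0.0073). H2-Q6 had 0.96 ± 0.21 (adjusted p 0.0067), H2-Q4 0.71 ± 0.14 (adjusted p 0.0023), H2-T23 0.54 ± 0.11 (adjusted p 0.0025) and H2-M3 0.43 ± 0.08 (adjusted p 0.0017). Within prep 1, which holds 15 months replicate 7, the log2 fold changes of H2-K1, H2-Q7 and H2-Q6 were 0.20, 0.06 and -0.10, whereas in preps 2 and 3 they lay between 0.75 and 1.78. The difference between preps was not tested. Reads of these heavy chains are hard to assign because the genes are near copies of each other, so the values of single members are uncertain.

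Some partners of the heavy chains rose and others were not called. B2m, beta-2 microglobulin, went from 66.5 to 102 CPM (median 79.2) up to 82.3 to 242 CPM (median 94.4), with a log2 fold change of 0.42 ± 0.09 (adjusted p 0.0036). The value of 242 CPM belonged to replicate 13, and the next old brain, replicate 10, was at 134 CPM. The peptide transporter subunit Tap1 rose by 0.46 ± 0.09 (adjusted p 0.0035), and the immunoproteasome subunits Psmb9 and Psmb8 by 0.59 ± 0.13 (adjusted p 0.0067) and 0.71 ± 0.16 (adjusted p 0.0091). Psmb8 stood at 24.7 CPM in replicate 13. Without that library it had 0.49 and missed the threshold (adjusted p 0.067). The 6 list members that were not called were Tap2 (0.22, adjusted p 0.12), the loading factors Tapbp (0.18, adjusted p 0.26) and Tapbpl (0.09, adjusted p 0.80), the heavy chain H2-T22 (0.14, adjusted p 0.30), the immunoproteasome subunit Psmb10 (0.20, adjusted p 0.92) and the peptide trimmer Erap1 (0.06, adjusted p 0.93). Tap1 and Psmb9 overlap on opposite strands, as do Psmb8 and Gm20496 and H2-Q4 and Gm11131, so reads of these partners cannot be told apart if the counting ignored strand. Nlrc5, the transactivator of class I genes, rose by 0.72 ± 0.14 (adjusted p 0.0018), from a median of 1.42 CPM to 2.31 CPM. On chromosome 17, between 33974659 and 37483552 (GRCm38), the histocompatibility region held 15 called genes of 132 tested (11.4%), all higher, where 0.679% of all tested genes were called higher. The region was picked after the class I calls within it were seen, so this is a description. They include C4b and its neighbour pseudogene Cyp21a2-ps.

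To show what the promoters of the genes that moved together hold, RefSeq promoter windows (GRCm38.p6, the 250 bases before the gene start) were searched for letters close to an NF-kB site, GGGA, any 4 bases and CC, to an interferon response element, GAAA, any 2 bases and GAAA, and to a STAT site, TTC, any 3 bases and GAA, on both strands. The table matched 15 of the 18 list members and 11 of the 12 called ones. The first pattern was in 7 of these 11 windows (63.6%) and in 26% of 12933 tested genes with a window. It was in 53.3% of the windows of the whole list and in 34.4% of those of all genes called higher. Apart from B2m, the 7 were the heavy chains H2-K1, H2-D1, H2-Q4, H2-Q6, H2-Q7 and H2-M3. These are related genes, so their windows are not separate observations. The second pattern was in 2 of the 11 (18.2%), in 10.0% of the genes called higher and in 3.15% of those tested genes. The third was in 2 of the 11 (18.2%), in 5.56% of the genes called higher and in 7.12% of the tested genes. A match is a string of letters and no evidence of binding, and the lack of a match is no evidence that a site is absent. The windows of H2-K1 (chr17:34000348-34000597, minus strand), H2-D1 (chr17:35262844-35263093, plus strand), H2-Q7 (chr17:35438905-35439154, plus strand) and B2m (chr2:122147437-122147686, plus strand) are printed 5′ to 3′ on the strand of the gene, because they show the same run of letters in the heavy chains and both patterns in B2m. Capitals mark the matches, and where a match on each strand overlaps, the capitals cover both.
H2-K1: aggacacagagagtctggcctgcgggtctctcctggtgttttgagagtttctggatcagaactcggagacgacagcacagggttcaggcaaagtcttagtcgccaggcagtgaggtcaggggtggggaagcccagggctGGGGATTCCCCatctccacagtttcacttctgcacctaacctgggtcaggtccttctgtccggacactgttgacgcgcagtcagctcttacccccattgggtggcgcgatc
H2-D1: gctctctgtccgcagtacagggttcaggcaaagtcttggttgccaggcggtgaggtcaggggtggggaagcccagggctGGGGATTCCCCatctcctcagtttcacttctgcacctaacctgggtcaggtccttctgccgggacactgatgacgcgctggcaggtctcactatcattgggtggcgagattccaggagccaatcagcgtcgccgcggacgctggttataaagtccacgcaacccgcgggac
H2-Q7: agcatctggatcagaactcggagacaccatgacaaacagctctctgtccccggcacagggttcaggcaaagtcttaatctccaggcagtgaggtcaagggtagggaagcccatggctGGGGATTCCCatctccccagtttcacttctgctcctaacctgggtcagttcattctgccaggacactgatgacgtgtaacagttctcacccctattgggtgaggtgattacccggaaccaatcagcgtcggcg
B2m: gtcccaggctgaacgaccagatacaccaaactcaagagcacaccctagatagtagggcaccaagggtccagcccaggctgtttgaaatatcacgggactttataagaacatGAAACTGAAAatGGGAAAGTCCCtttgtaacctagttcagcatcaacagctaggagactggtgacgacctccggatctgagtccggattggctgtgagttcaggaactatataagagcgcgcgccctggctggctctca

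Among 32 type I interferon-stimulated genes, 30 had positive values, with a median log2 fold change of 0.47. How many were called depended on the tool: edgeR called 4 higher, DESeq2 12 and voom 16, and 25 had an unadjusted p under 0.05 with edgeR. Over all tested genes edgeR called 0.679% higher, and 1631 of 18711 had an unadjusted p under 0.05. The 4 were the master regulator Irf7 (0.70 ± 0.16, adjusted p 0.013), the entry-restriction protein Ifitm3 (0.67 ± 0.15, adjusted p 0.0096), Rtp4 (0.53 ± 0.12, adjusted p 0.0091) and Oasl2 (0.56 ± 0.15, adjusted p 0.041). Irf7 had medians of 2.23 and 3.58 CPM, all old brains lay above the younger median, and 10 of 17 exceeded every younger brain. Without replicate 13 Oasl2 had a similar fold change, 0.54, and missed the threshold (adjusted p 0.067). The nuclear body gene Sp110, outside the list, rose by 0.57 ± 0.10 (adjusted p 0.00047) and overlaps G530012D18Rik on the opposite strand. All 14 interferon-inducible GTPases were positive (median 0.49) and 0 were called by edgeR, with 12 at an unadjusted p under 0.05, 1 called by DESeq2 and 5 by voom. Igtp had 0.52 ± 0.15 (adjusted p 0.074) and Gbp2 0.46 ± 0.14 (adjusted p 0.096). Class II genes, which present antigen to helper T cells, gave 7 positive values of 7, a median of 0.65 and 0 called by edgeR, with 5 at an unadjusted p under 0.05, 1 called by DESeq2 and 0 by voom. Their H2-Ab1 had 0.90 ± 0.27 (adjusted p 0.10) and their invariant chain Cd74 0.80 ± 0.25 (adjusted p 0.12).

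**Figure D3:**
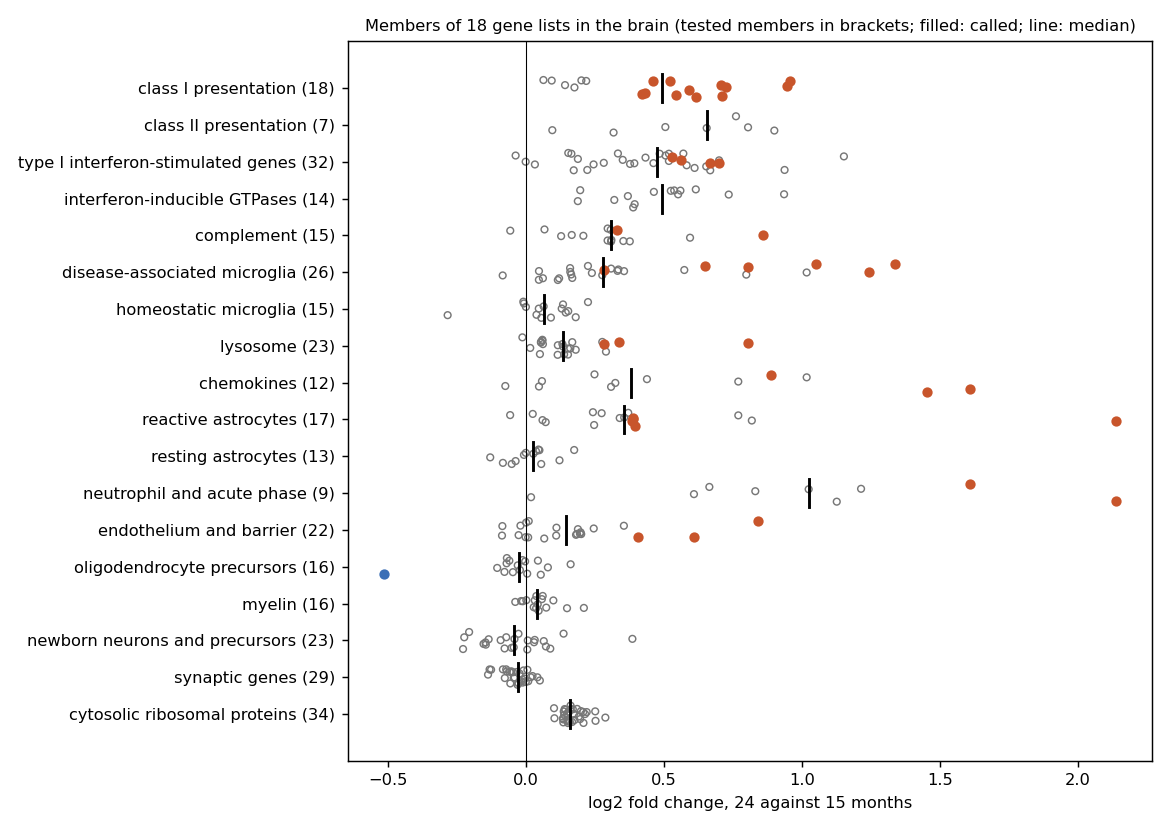
Log2 fold change of 24 against 15 months for the tested members of 18 gene lists. Each circle is a gene, filled red if called higher and blue if called lower, and the black line is the list median. Class I presentation holds 12 filled circles, while myelin, synaptic and ribosomal genes hold none.

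Gfap, the intermediate filament of astrocytes, was at 274 to 389 CPM (median 319) at 15 months and at 289 to 525 CPM (median 438) at 24 months. Of the old brains 12 were above every younger one, while the other 5, replicates 1, 2, 6, 8 and 16, lay within the younger range. The log2 fold change was 0.39 ± 0.08 (adjusted p 0.0020). Reactive astrocyte genes had 5 called higher of 17 by edgeR, 6 by DESeq2 and 9 by voom, and a median of 0.36. Besides Gfap the 5 were the filament Vim (0.38 ± 0.08, adjusted p 0.0045), the proteoglycan Srgn (0.39 ± 0.08, adjusted p 0.0067), the oncostatin receptor Osmr (0.40 ± 0.10, adjusted p 0.047) and Lcn2. Resting astrocyte genes gave 0 called of 13 by edgeR, DESeq2 and voom, 0 at an unadjusted p under 0.05, and a median of 0.03. Aldoc had 0.12 ± 0.06 (adjusted p 0.57) and the gap junction gene Gja1 -0.08 ± 0.04 (adjusted p 0.61).

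In Lcn2 and Lrg1, the 2 called genes of the neutrophil and acute phase list, a few animals stood far above the rest. Lcn2, lipocalin 2, an iron-sequestering acute phase protein, was at 0.031 to 2.57 CPM (median 0.254) at 15 months and at 0.212 to 9.03 CPM (median 1.15) at 24 months. Replicates 5, 6, 8, 9 and 10 were above all younger brains, at 3.69 to 9.03 CPM, and the other 12 old brains fell within the younger range. The log2 fold change was 2.14 ± 0.46 (adjusted p 0.0059). Lrg1, a secreted leucine-rich glycoprotein of the acute phase, had medians of 0.905 and 1.42 CPM, a highest old value of 13.2 CPM in replicate 8, and a log2 fold change of 1.61 ± 0.35 (adjusted p 0.0068). It was not called without replicate 8, where the change was 1.16. Tmem252 (1.12 ± 0.27, adjusted p 0.017) reached 9.13 and 7.97 CPM in replicates 5 and 8, against a median of 1.12 CPM, and was not called without either of them.

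Ch25h, which makes 25-hydroxycholesterol, had 1.24 ± 0.33 (adjusted p 0.047) with 4.97 and 4.94 CPM in replicates 5 and 8, and it was called in 14 of the 33 fits that left out a single library. Bcl3, a nuclear partner of NF-kB proteins, was spread more evenly. It rose by 0.95 ± 0.19 (adjusted p 0.0025) from a median of 0.510 to 0.891 CPM, and replicates 5, 6, 8, 9 and 10 were also its highest. Bcl3 and Ch25h overlap Gm16175 and Gm26902 on the opposite strand. The long noncoding transcript Gm45104 had 1.04 ± 0.23 (adjusted p 0.0067) and no such group of animals, with 0.592 to 1.5 CPM in the old brains. Of 9 neutrophil and acute phase genes tested, all were positive, 2 (Lcn2 and Lrg1) were called by edgeR, 3 by DESeq2 and 1 by voom, and the median was 1.02. With voom Lcn2 was called (adjusted p 0.0030) and Lrg1 was not (adjusted p 0.057). S100a9, a calcium-binding protein of neutrophils, had 1.21 ± 0.37 (adjusted p 0.10).

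Among endothelial genes Vwf, the clotting factor stored in endothelium, was high in the same animals. It was at 9.21 to 31.4 CPM at 15 months. At 24 months it was at 51.8 to 119 CPM in replicates 5, 6, 8, 9 and 10 and at 14.3 to 27.8 CPM in the other 12. Its log2 fold change was 0.84 ± 0.20 (adjusted p 0.013), and it was not called without replicate 8. Ly6a and Ly6c1, surface proteins of brain endothelium, rose by 0.61 ± 0.14 (adjusted p 0.0094) and 0.40 ± 0.09 (adjusted p 0.0073), and both were highest in replicate 13. Those 3 were the called genes of 22 endothelial and barrier genes, whose median was 0.15. Beside these values, choroid plexus genes were highest in replicate 8 (5968 CPM, median 229) among the old brains and meningeal genes in replicate 9 (1503 CPM, median 347). Cerebellar genes were highest in replicate 6 (771 CPM, median 125) and red blood cell genes in replicate 10 (459 CPM, median 107). In replicate 5 these sums were, in the same order, 220, 531, 125 and 196 CPM. Replicate 13, outside the group, had red blood cell genes at 438 CPM. The part of these tissues in the result was not tested. The 15-month replicate 14, with choroid plexus genes at 6649 CPM, had Lcn2 at 0.512 CPM, Lrg1 at 1.68 CPM, the highest younger value, and Vwf at 28.3 CPM, the next to highest. Choroid plexus and meningeal genes as lists gave 0 called of 11 and 0 called of 9, and 0 at an unadjusted p under 0.05, with edgeR, and 0 called with DESeq2 and voom.

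Of 21 chemokines listed, 12 passed the filter and 3 were called higher by edgeR, 4 by DESeq2 and 7 by voom, with a median of 0.38. Ccl5, which attracts T cells, rose by 1.45 ± 0.31 (adjusted p 0.0045) from a median of 0.087 to 0.324 CPM. Ccl8 rose by 1.61 ± 0.39 (adjusted p 0.017) and Ccl12 by 0.89 ± 0.21 (adjusted p 0.013). Ccl8 was not called without 24 months replicate 14, its highest library. Of 17 T lineage genes 4 passed the filter and 0 were called by edgeR, DESeq2 or voom or had an unadjusted p under 0.05, and the T cell receptor chains Cd3d, Cd3e and Cd3g did not pass. Of 12 B lineage genes 8 passed, all were positive (median 0.90) and 0 were called by edgeR, with 5 at an unadjusted p under 0.05, 2 called by DESeq2 and 1 by voom. Cd79b, a chain of the B cell receptor, had 0.90 ± 0.25 (adjusted p 0.054). The antibody light chain Igkc was at 40.2 CPM in 24 months replicate 9 and at 0.354 to 4.98 CPM in the other old brains.

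Of the 10 genes that fell, Gpr17 had the lowest fold change among those the naming rule picked. Gpr17, a receptor of committed oligodendrocyte precursors, was at 35.8 to 54.9 CPM (median 42.2) at 15 months and at 13.7 to 38.9 CPM (median 31.1) at 24 months. All 17 old brains lay below the younger median and 13 below every younger brain, with replicate 13 lowest at 13.7 CPM. The log2 fold change was -0.51 ± 0.10 (adjusted p 0.0018), a decrease to 70.0% of the younger level, and it was -0.46 without replicate 13. Gpr17 overlaps Lims2 on the opposite strand. Outside the rule, and named after their values were seen, 1700030J22Rik fell by 0.25 on the log2 scale (adjusted p 0.0018) with 15 of 17 old brains below every younger one, and the less expressed 9630013A20Rik fell by 0.83 (adjusted p 0.013) with 11 below. Gpr17 was the single called gene of 16 oligodendrocyte precursor genes, whose median was -0.03. The other lower genes named by rule were the mitochondrial methionine tRNA mt-Tm (-0.44 ± 0.12, adjusted p 0.04995), the unannotated transcript Gm37940 (-0.31 ± 0.08, adjusted p 0.04995), the corepressor Cbfa2t3 (-0.30 ± 0.08, adjusted p 0.037) and the nuclear protein Banp (-0.28 ± 0.07, adjusted p 0.027). Without replicate 13 Banp was called (-0.28, adjusted p 0.039), while mt-Tm (-0.37, adjusted p 0.063), Gm37940 (-0.31, adjusted p 0.063) and Cbfa2t3 (-0.28, adjusted p 0.072) kept similar fold changes and missed the threshold. Banp and Cbfa2t3 overlap other transcripts on the opposite strand.

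Neuronal, myelin and biosynthetic lists held 0 genes called by edgeR. At an unadjusted p under 0.05, 3 newborn neuron genes, 1 proliferation gene and 1 synaptic gene were lower, and 0 genes of the myelin, ribosomal and oxidative phosphorylation lists passed. DESeq2 called 1 proliferation gene lower, voom the same number and 2 newborn neuron genes, and neither called a gene of the synaptic, myelin, ribosomal, oxidative phosphorylation or senescence lists. DESeq2 gave no adjusted p for 25 of the 34 ribosomal and 21 of the 39 oxidative phosphorylation genes, which it could therefore not call. Synaptic genes had a median of -0.03 over 29 members, myelin genes 0.04 over 16, newborn neuron genes -0.04 over 23 and proliferation genes -0.07 over 19. Examples are the vesicle protein Syn1 (-0.08 ± 0.05, adjusted p 0.76), the scaffold Shank2 (-0.13 ± 0.06, adjusted p 0.49), the transcription factors Sox11 (-0.23 ± 0.09, adjusted p 0.32) and Sox4 (-0.21 ± 0.07, adjusted p 0.20), and the nucleotide enzyme Rrm2 (-0.33 ± 0.09, adjusted p 0.060). Transferrin, Trf, which oligodendrocytes make, had 0.21 ± 0.11 (adjusted p 0.60). All 34 cytosolic ribosomal protein genes were positive, with a median of 0.16 and 0 called, and the median was 0.0058 without replicate 13. All 39 nuclear genes of oxidative phosphorylation were likewise positive (median 0.10), and their median was -0.03 without it. The senescence gene Cdkn2a had 0.75 ± 0.26 (adjusted p 0.19), and its list of 11 tested genes gave 0 called by edgeR, with 2 higher and 1 lower at an unadjusted p under 0.05. Cerebellar genes had 1 called of 5, the granule cell gene Cbln3 (3.39 ± 0.85, adjusted p 0.028). It was at 174 CPM in replicate 6 and 0.25 on the log2 scale without that library, when it was not called.

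The called genes were looked up in brains at 3, 9 and 28 months, which were outside the 15- and 24-month groups. All ages came from the same fit, however, with prep terms and the spread of each gene estimated over all ages together. A gene called for its small spread is then more easily called between other ages too. The counts of called genes, also those for 3 to 9 months, are therefore a description and no independent check against the shares of all genes. Between 28 and 3 months 16.3% of all tested genes were called higher and 12.0% lower. Of the 127 genes higher at 24 than at 15 months, 121 (95.3%) were called higher and 0 lower, and all 10 lower genes were called lower. They made up 2.48% of the 5291 genes called between 28 and 3 months. Fold changes between these ages were positive for all 127 genes and negative for all 10. Between 28 and 9 months, where 10.9% of genes were higher and 6.14% lower, 118 of the 127 and 10 of the 10 were called in the same direction. Among the 6 genes not called between 28 and 3 months was Ccl5 (0.41, adjusted p 0.26). Mean CPM of Ccl5 at 3, 9, 15, 24 and 28 months was 0.220, 0.122, 0.110, 0.313 and 0.306.

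Over the earlier step from 3 to 9 months, 0.187% of genes were called higher and 0.128% lower. Of the 127 genes, 6 were called higher there, among them C4b (0.47, adjusted p 0.0094) and Ly9 (0.83, adjusted p 0.0016), and the median of the 127 was 0.07. Gpr17 was already lower at 9 than at 3 months (-0.43, adjusted p 0.030). The difference of the 2 steps, 24 minus 15 against 9 minus 3 months, was tested in the same fit, a test added after the data were seen. It was larger in the later step for 12 of the 127 genes (0.102% of all genes) and smaller for 0 (0.00534% of all genes). Because the 127 were chosen by their rise in the later step, which is a term of this difference, these counts are a description and are not read against the share of all genes. These were H2-K1, H2-D1, H2-T23, Nlrc5, Irf7, Ifitm3, Rtp4, Ccl5, Cybb, Apobec3, Ifi204 and Ifi207. C4b (adjusted p 0.53), Ly9 (adjusted p 1.0) and Gpr17 (adjusted p 1.0) showed no such difference at this precision.

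**Figure D4:**
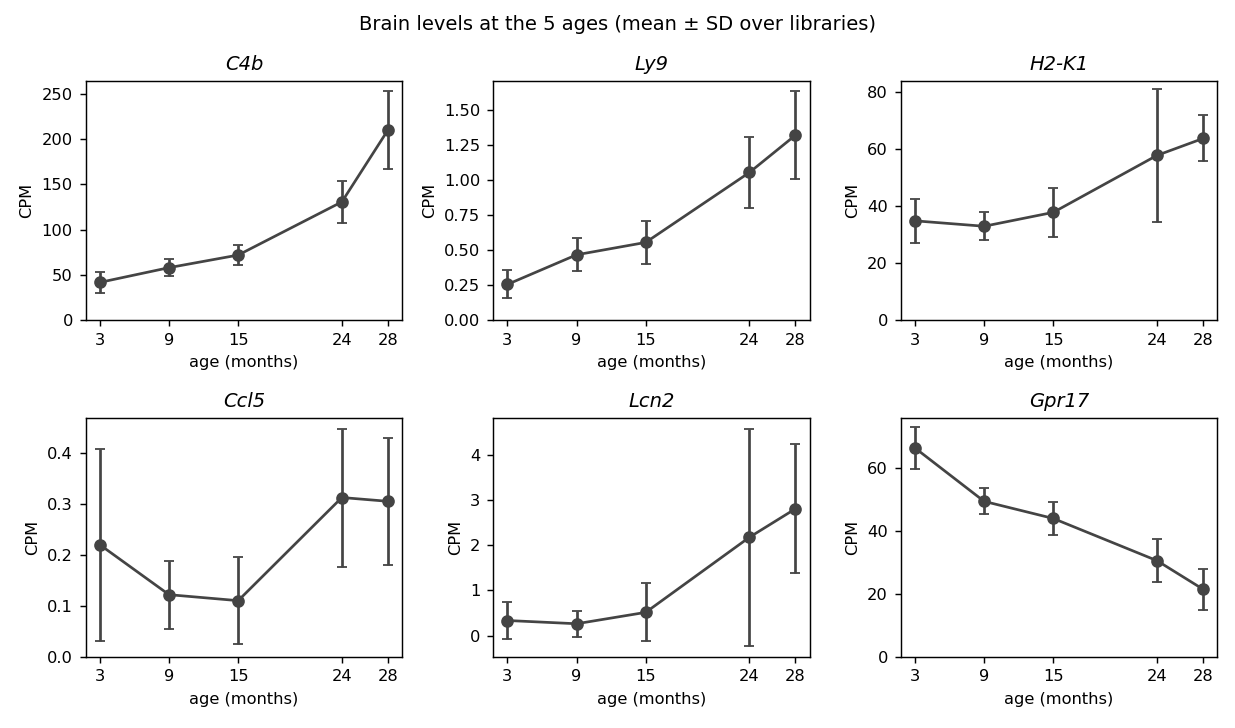
Mean ± SD of CPM over brain libraries at 3, 9, 15, 24 and 28 months for 6 genes. C4b and Ly9 rose and Gpr17 fell from the first ages on, whereas H2-K1 and Lcn2 had their higher means at 24 and 28 months.

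Livers of the same ages, by their labels from the same mice, were compared to ask whether the genes that moved in the brain moved outside it. They are another tissue and not another set of animals. Of the 127 higher genes, 110 passed the filter in the liver and 90 (81.8%) were called higher at 24 than at 15 months, against 20.8% of the 14035 genes tested in both tissues. One of the 110, Acy3, was called lower (1 gene), and 14.5% of those genes were. The 90 genes and the single lower gene shared by both tissues, Dcaf12, were 1.84% of the 4951 called liver genes. The median log2 fold change of the 110 was 0.82 in the liver. The difference between the tissues, an interaction of tissue and age, was called for 31 of the 116 called genes tested in both tissues (110 higher and 6 lower in the old brain), and for 18.8% of the 14035. Because the 116 were chosen by their change in the brain, which is a term of this difference, the count is a description and is not read against that share. It was larger in the brain for 11 and smaller for 18 of the 110 higher genes. C4b changed by 0.43 more in the brain (adjusted p 0.026) and H2-K1 by 0.38 more (adjusted p 0.023; without replicate 13 0.30, adjusted p 0.078), while Lcn2 changed by 3.15 less (adjusted p 0.010), having risen by 5.26 ± 0.85 in the liver. Fits of this difference without 24 months replicate 13 left out both its brain and its liver library, whose parts cannot be told apart. The difference was then called for 16 genes, and 14 of the 31 were among them.

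Within the old group, a brain and a liver library that carry the same number were taken as 1 mouse, and the levels of 9 genes, those among the named genes of highest fold change that were also tested in liver, were correlated over 17 mice. Of the 5 mice with the highest Lcn2 in the brain, 4 also had the 4 highest livers. The livers of replicates 5, 8 and 6 had 3956, 2060 and 1133 CPM, against 11.6 to 414 CPM in the other 14, where replicate 10 was highest and replicate 9, the remaining mouse of the 5, was at 46.5 CPM, and the liver acute phase gene Saa1 was at 14175, 13563 and 9145 CPM in those 3 and at most 1743 CPM elsewhere at 24 months. Pearson's r of log2 CPM was 0.77 (permutation p 0.00032, adjusted over 9 genes 0.0029) and Spearman's rho 0.79 (permutation p 0.00028). It was 0.73 without the 2 farthest mice, 0.80 within prep 2 and 0.74 within prep 3, while prep 1 held too few mice. Lrg1 had r 0.73 (adjusted permutation p 0.0044) and rho 0.54 (adjusted permutation p 0.079), and r was 0.36 without replicates 8 and 5. With replicate 13 left out, r of Lrg1 was 0.84 and rho 0.67 (permutation p 0.0052), and r was 0.61 when replicates 8 and 5 were left out as well, so its size depends on these 3 mice.

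H2-Q7 had r 0.78 (adjusted permutation p 0.0038) and rho 0.50 (adjusted permutation p 0.094). Without replicates 10 and 13 r was 0.37, so it rests on those mice, whose livers had 157 and 222 CPM against 80.3 to 124 CPM in the others. At 15 months replicate 7, the highest brain for class I genes, also had the highest liver, at 134 CPM against 60.9 to 83.5 CPM. Ch25h (r 0.64, adjusted permutation p 0.010; rho 0.58, adjusted 0.069) kept r 0.55 without the 2 farthest mice. Bcl3 had r 0.58 (adjusted permutation p 0.027) and rho 0.42 (adjusted 0.17). The test did not reach the threshold for Clec7a (r -0.36), Gm45104 (r 0.25), Ly9 (r 0.43) and C4b (r 0.13), with adjusted permutation p of 0.19, 0.38, 0.13 and 0.62. Without replicate 13 r was -0.03 for Clec7a, 0.33 for Gm45104, 0.10 for Ly9 and 0.05 for C4b.

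**Figure D5:**
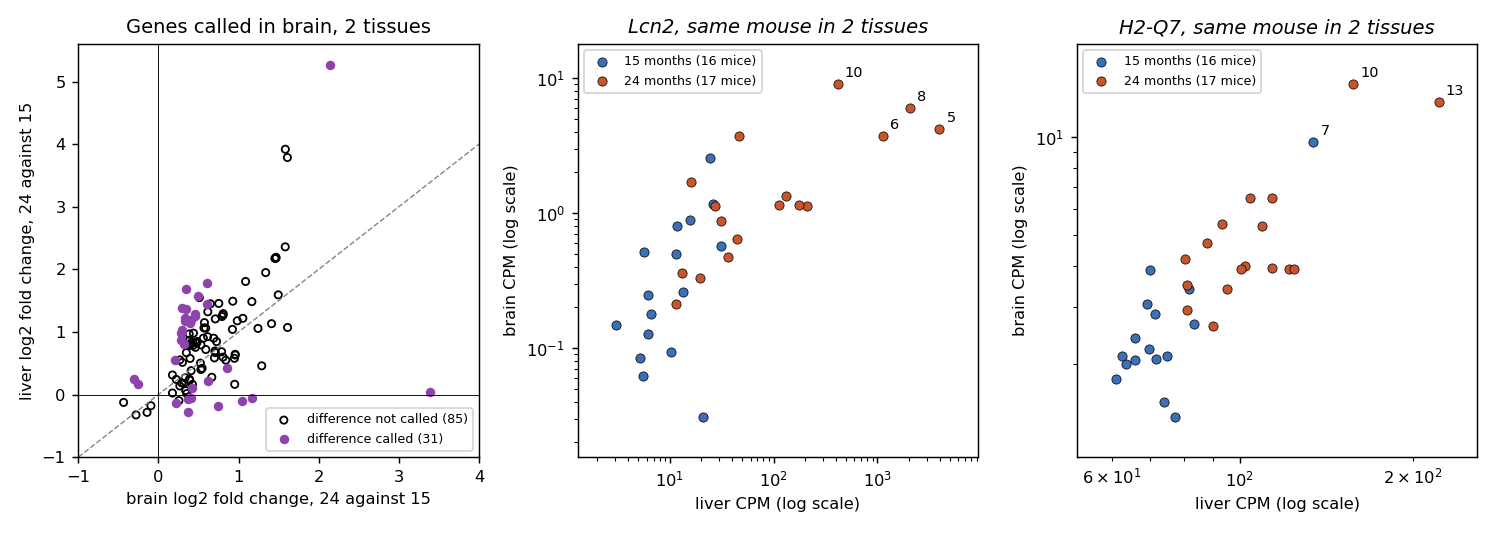
Left, log2 fold change of 24 against 15 months in brain (horizontal) and liver (vertical) for the called brain genes tested in both, purple where the interaction was called (31 genes), with the line of equal change dashed. Middle and right, CPM of Lcn2 and H2-Q7 in liver (horizontal) and brain (vertical) of each mouse on log axes, 15 months in blue and 24 months in red, with replicate numbers of the highest mice. The old mice 5, 6 and 8 are high for Lcn2 in both tissues, as are 10 and 13 for H2-Q7.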

How the data were processed

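Per the submitters' processing notes, reads were handled with cutadapt 2.8, HISAT2 2.1.0, SAMtools 1.9 and featureCounts of Subread 2.0.1 on GRCm38.p6 (mm10). Their order and the strand setting are not given in the sources used here. The authors deposited raw counts per gene and library, and 0 count columns were left unused. Symbols and coordinates came from GENCODE M21 (55144 of 55471 identifiers). All 82 brain libraries were fitted with edgeR 4.0.16 in R 4.3.3: TMM scaling, filterByExpr by age, quasi-likelihood test of 24 minus 15 months with age and prep as terms, Benjamini-Hochberg adjustment over all tested genes, prior count of 2 for log2 CPM. The other ages came from the same fit. The 83 livers were fitted alike, and the tissue difference in 1 fit that treats a mouse's brain and liver as independent. DESeq2 1.42.0 and limma 3.58.1 (voom) served as alternatives. Correlations used 100000 two-sided permutations. The test was tried on simulated counts. P-values of the fits set a change against the spread between libraries, estimated over all ages. Those of the correlations come from permutation over mice. Members and gene lists were chosen with earlier results of these data known.

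Named genes had to be called, to average 1 CPM or more at either age and to move the same way in each prep; they were the 10 highest fold changes, the 10 smallest p-values of those that rose and the 5 lowest fold changes, plus up to 3 members of each list by p and all called members. Genes named outside this rule are those of the histocompatibility region, the step difference, the tissue difference and the closing observations, the members of the class I list that were not called, and 9630013A20Rik, chosen after their values were seen. Replicate numbers shared by the ages did not pair the samples: of 16 same-numbered pairs the correlation of deviations ran from -0.26 to 0.26, and 5 were over 0.1.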

Additional observations from a re-analysis of the deposited data

Results flagged for a closer look

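For 24 genes named in the text the change from 15 to 24 months differed between brain and liver by the interaction test of edgeR (adjusted p under 0.05). Values are the brain log2 change minus the liver log2 change. Larger in the brain were C4b (0.43), H2-K1 (0.38), B2m (0.31), the galectin Lgals9 (0.42), the noncoding Gm45104 (1.13), the pseudogene Cyp21a2-ps (1.21), the aminoacylase Acy3 (0.64), Cutc (0.35) and Cbln3 (3.31), the last resting on 24 months replicate 6. Smaller in the brain were Mpeg1 (-0.75), Cd68 (-0.59), Ctss (-0.89), Fcgr3 (-0.72), Itgb2 (-0.85), Alox5ap (-1.09), Csf2rb (-0.84) and AU020206 (-0.78). The same held for Lcn2 (-3.15), Apobec3 (-1.33), Ly6c1 (-0.78), Ly6a (-1.15) and Osmr (-0.75). Among genes lower in the old brain, the difference was -0.44 for 1700030J22Rik and -0.56 for Cbfa2t3. Without the brain and the liver library of 24 months replicate 13 the sign was the same for all 31 called differences and 14 stayed called. Those that did not include H2-K1 (0.30, adjusted p 0.078), B2m (0.23, adjusted p 0.11), Csf2rb (-0.58, adjusted p 0.11), AU020206 (-0.32, adjusted p 0.38) and Apobec3 (-0.58, adjusted p 0.15). Also lost were Cd68 (-0.49, adjusted p 0.10), Itgb2 (-0.63, adjusted p 0.11), Ly6a (-0.83, adjusted p 0.14) and Osmr (-0.73, adjusted p 0.057). Both genes lower in the old brain were lost as well, Cbfa2t3 (-0.29, adjusted p 0.21) and 1700030J22Rik (-0.42, adjusted p 0.056). C4b stayed at 0.43 (adjusted p 0.037).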

How the results depend on the processing

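Against 137 calls with all libraries, each of the 33 fits that left out a single library of either age gave 100 to 172 calls. In all of these fits 79 of the 137 genes were called. Fitted alone, without the other ages, the 33 libraries gave 172 calls (157 higher, 15 lower) among 17855 tested genes. Only 92 of these were among the 137, and 123 of the 137 were tested there with the same direction. Without 24 months replicate 13 the count was 107, with 39 genes lost and 9 gained, and all 137 kept their direction. Without 28 months replicate 15 it was 294, without both 230, and without 24 months replicates 6 and 13, chosen after seeing the data, 74. DESeq2 called 247 (217 higher, 30 lower) and voom with quality weights 848 (514 higher, 334 lower), so that 60.6% of its calls were higher, against 92.7%. Prep 1, 2 and 3 alone gave 1, 0 and 0 calls by edgeR, with 546, 1535 and 597 genes at an unadjusted p under 0.05. With the replicate number as a block 98 genes were called (93 higher, 5 lower), 93 of them shared; 2 of 16 younger brains correlated best with their own number. The tissue difference fell from 31 to 16 genes without the brain and the liver library of 24 months replicate 13. In prep 1 alone the sign turned for H2-Q6 (-0.10), Cbln3 (-0.25), Igtp (-0.040) and Cnpy1 (-0.33), and r of C4b was -0.043 on residuals after prep means. The cause of these shifts was not tested. List counts by edgeR, DESeq2 and voom were 4, 12 and 16 for interferon-stimulated genes, 2, 4 and 7 for complement, 3, 4 and 9 for lysosome, 3, 4 and 7 for chemokines, 6, 9 and 12 for disease-associated microglia, 5, 6 and 9 for reactive astrocytes and 2, 3 and 1 for neutrophil and acute phase genes.

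Low genes limit the precision: of the 127 higher genes 94 reached a mean of 1 CPM at either age. Nearly identical genes and pairs overlapping on opposite strands limit single values, since the strand setting of the counting is not given in the sources used here.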

Other observations

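Further genes of phagocytes and other immune cells were called in the old brain by edgeR's quasi-likelihood test. They stand outside the naming rule and were picked after their values were seen, so they are no independent support for the lists above. Hcar2, the receptor for hydroxybutyrate and niacin, rose by 1.29 ± 0.23 (adjusted p 0.00049) from a median of 0.140 to 0.396 CPM, with 13 of 17 old brains above all younger ones. Cd22, an inhibitory receptor for sialic acid, rose by 0.81 ± 0.17 (adjusted p 0.0054), with 14 of 17 above. Alox5, which starts leukotriene synthesis, rose by 0.62 ± 0.12 (adjusted p 0.0023), and its partner Alox5ap by 0.30 ± 0.08 (adjusted p 0.032). Mpeg1, a pore-forming protein of macrophages, rose by 0.29 ± 0.06 (adjusted p 0.0023) from a median of 39.7 to 50.3 CPM.

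Among receptors for antibody, the inhibitory Fcgr2b rose by 0.39 ± 0.08 (adjusted p 0.0059), the activating Fcgr3 by 0.28 ± 0.07 (adjusted p 0.015) and Fcgr4 by 0.93 ± 0.22 (adjusted p 0.012). The inhibitory receptors Pirb (0.71 ± 0.16, adjusted p 0.0073) and Lilrb4a (0.98 ± 0.22, adjusted p 0.0073) belong to families of near copies, so their values are uncertain. Cybb, the catalytic subunit of the phagocyte oxidase, rose by 0.79 ± 0.17 (adjusted p 0.0045) and the pattern receptor Tlr2 by 0.53 ± 0.13 (adjusted p 0.019). Outside the immune genes, Cirbp, a cold-inducible RNA-binding protein, rose by 0.35 ± 0.09 (adjusted p 0.047) but was not called without 24 months replicate 13, when it had 0.28 (adjusted p 0.15). Fcgr3 (0.24, adjusted p 0.059) and Alox5ap (0.25, adjusted p 0.097) kept similar fold changes and also missed the threshold without that library.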
